A study of Drosophila melanogaster with 2 samples.

Results

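The regions described here were 1253 Krüppel (Kr) ChIP-seq peaks that lay below the authors' reproducibility cutoff in the pooled data and yet ranked high in both replicates. Pooled peaks of the dm6 genome were ordered by their deposited signal value, and the peaks down to rank 6000 were taken that come directly under the 2102 peaks that the authors kept after thresholding by irreproducible discovery rate (IDR peaks). A peak of that band became a member when its summit lay within 250 bp of a summit among the 6000 highest peaks of each replicate, and over 250 bp from every IDR summit. The 1253 members made up 32.1% of the 3898 peaks in the band and 4.18% of all 30000 pooled peaks. Signal, rank and summit position chose the members, so those values are given as a description and carry no test.

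The study mapped Kr in whole Drosophila melanogaster embryos of both sexes, 0 to 10 h of age, in 1 group of 2 biological replicates numbered 2 and 3. The fly strain, Kr-GFP, was a transgenic line that stably expressed Kr with GFP fused to its C terminus. The sample descriptions name an antibody to GFP while the antibody field of the labels names Kr, so whether untagged Kr was also recovered cannot be told from them. The labels do not say which cells made the tagged protein. Whole embryos over such a span mix many cell types and stages, and no second genotype, treatment or untagged group was analysed here.

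Kr is a gap gene of the segmentation cascade, expressed first in a central band of the blastoderm and later in further tissues, among them the nervous system and muscle precursors. Its protein is a zinc finger transcription factor that acts mainly as a repressor and recognises a short core sequence, AAGGGTT or its reverse complement AACCCTT. ChIP-seq of such factors gives a long tail of weaker peaks below any cutoff.

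The DNA under members is shown in 8 windows of 201 bp centred on the pooled summit, taken from the RefSeq Release 6 genome (dm6), plus strand, with each copy of the Kr core word in capitals. The hb and cic windows, chr3R:8688799-8688999 and chr3R:20292084-20292284, were chosen because they are the only members with the word at gap, pair-rule, maternal and terminal genes.
hb: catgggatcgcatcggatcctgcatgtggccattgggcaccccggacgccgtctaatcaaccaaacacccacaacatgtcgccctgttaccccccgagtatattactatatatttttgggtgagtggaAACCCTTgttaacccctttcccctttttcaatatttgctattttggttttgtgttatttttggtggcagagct
cic: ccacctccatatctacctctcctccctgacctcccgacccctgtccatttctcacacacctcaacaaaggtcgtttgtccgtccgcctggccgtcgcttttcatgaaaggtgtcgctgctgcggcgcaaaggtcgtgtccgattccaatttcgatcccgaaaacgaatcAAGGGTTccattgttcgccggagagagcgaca
The hb window was intergenic and carried the word as AACCCTT, centred 31 bp from the summit, while the cic window was intronic and carried AAGGGTT at 72 bp. The next 5 windows show how the word lay under other members, and were chosen after their values were seen: tna (chr3L:10832316-10832516) and sno (chrX:13208564-13208764) for several copies, and SmD1 (chr3L:12732077-12732277), Nazo (chr3R:8285271-8285471) and ssp3 (chr2L:18914937-18915137) for high pooled signal. Each is named by the nearest transcription start site (TSS).
tna: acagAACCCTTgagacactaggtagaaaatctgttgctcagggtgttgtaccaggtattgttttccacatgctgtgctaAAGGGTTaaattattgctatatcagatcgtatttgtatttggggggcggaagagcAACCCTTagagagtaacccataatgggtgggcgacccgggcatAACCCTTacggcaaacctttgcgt
sno: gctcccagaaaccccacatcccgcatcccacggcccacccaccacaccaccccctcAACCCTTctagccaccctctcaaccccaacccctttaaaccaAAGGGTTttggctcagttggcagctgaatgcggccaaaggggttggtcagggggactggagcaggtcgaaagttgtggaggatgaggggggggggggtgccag
SmD1: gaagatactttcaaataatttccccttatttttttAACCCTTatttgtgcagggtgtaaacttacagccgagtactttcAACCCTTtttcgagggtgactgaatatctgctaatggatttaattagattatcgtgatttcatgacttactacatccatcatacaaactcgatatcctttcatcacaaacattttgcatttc
Nazo: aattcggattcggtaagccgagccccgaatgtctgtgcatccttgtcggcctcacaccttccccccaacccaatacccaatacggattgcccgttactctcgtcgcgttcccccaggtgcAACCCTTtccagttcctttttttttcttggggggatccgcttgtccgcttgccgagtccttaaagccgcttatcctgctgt
ssp3: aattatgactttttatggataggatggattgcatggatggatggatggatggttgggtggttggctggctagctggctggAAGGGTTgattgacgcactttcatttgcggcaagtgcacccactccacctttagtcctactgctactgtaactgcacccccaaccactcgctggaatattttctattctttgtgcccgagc
The tna window held 4 words, the most of any member, and the sno and SmD1 windows held 2 each, with 1 of the sno words centred 1 bp from the summit. The window near E2f1 (chr3R:21644323-21644523) stands for the far more common case: it had the highest pooled signal of all members, directly under the last IDR peak, and no word.
E2f1: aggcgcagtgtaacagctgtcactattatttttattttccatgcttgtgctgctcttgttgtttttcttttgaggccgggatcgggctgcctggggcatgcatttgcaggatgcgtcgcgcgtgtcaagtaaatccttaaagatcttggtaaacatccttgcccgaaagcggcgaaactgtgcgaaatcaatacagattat

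Members grew rarer with rank. They made up 761 of the 1298 peaks down to rank 3400 (58.6%), 358 of 1300 at ranks 3401 to 4700 (27.5%) and 134 of 1300 at ranks 4701 to 6000 (10.3%). Of the other peaks in the band, 257 lay within 250 bp of an IDR summit and were left out. The remaining 2388, called unmatched peaks here, comprised 1264 matched in replicate 2 but not replicate 3, 873 matched in replicate 3 but not replicate 2, and 251 matched in neither. Unmatched means unmatched among the 6000 highest: 2141 of them (89.7%) did lie within 250 bp of some peak in both full replicate lists.

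**Figure D1:**
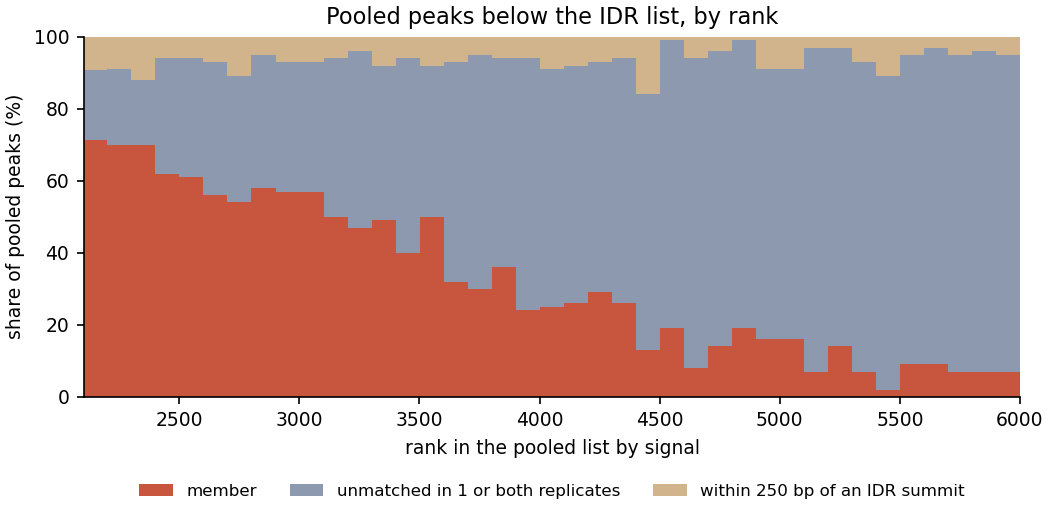
Share of pooled peaks (y axis, percent) that were members, unmatched, or within 250 bp of an IDR summit, by pooled rank in steps of 100 (x axis). Members made up 58.6% of the ranks down to 3400 and 10.3% of the ranks from 4701.

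The rule cut through continuous values. After rounding, the pooled peak at rank 2102, which is the number of IDR peaks, and the first peak below it both had a signal of 102.9. Ranks 6000 and 6001 both rounded to 65.66. In 108 members the farther replicate summit lay over 200 bp away, and 76 unmatched peaks would have matched at 251 to 300 bp. The weaker replicate rank was 5501 or more in 207 members, and 203 unmatched peaks had a weaker rank just past the ceiling, up to 6500.

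Members were weak but measurable peaks. Pooled signal, which is the authors' peak height on an unstated scale, ran from 65.7 to 103 with a median of 87.3, against a median of 74.0 in unmatched peaks and 133 in IDR peaks. Replicate 2 signal ran from 42.5 to 142 with a median of 52.7, and replicate 3 signal from 29.4 to 82.3 with a median of 36.9. The lower ends are the signals at rank 6000 of each list, so the level at that rank differed between the 2 lists. Whether they share a scale is unknown. The signal was higher in replicate 2 at 1139 members (90.9%), with a median ratio of 1.42 and an SD of 0.36 for the log2 ratio. IDR peaks had a median ratio of 1.45, so the offset was not particular to members. The deposited q-value in the pooled list was below 0.01 for 707 members (56.4%), against 16.2% of unmatched peaks, and below 0.05 for 1208 (96.4%). Pooled signal sets the rank and the q-value largely follows it. The median pooled rank was 3130 in members and 4588 in unmatched peaks, so both contrasts with unmatched peaks restate rank.

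Spearman's rho between the replicate signals was −0.12 over 1253 members and 0.41 over 2079 IDR peaks with a match in both. The rule held members to a band of pooled signal, cut off at both ends, and set a floor in each replicate. Such a selection pushes rho down, so the member value does not measure agreement between the replicates. Only 16 members ranked within the top 2102 of both replicates, 140 did so in replicate 2, 229 in replicate 3 and 900 in neither. The median distance between the 2 replicate summits was 68.0 bp, with closeness required by the rule, which allowed each at most 250 bp from the pooled summit.

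**Figure D2:**
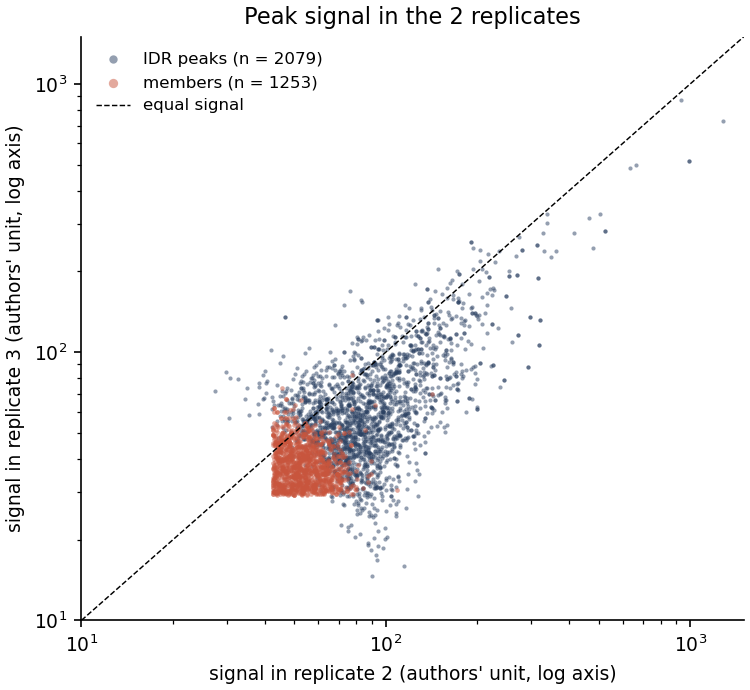
Signal of the matched peak in replicate 2 (x axis) and replicate 3 (y axis), both in the authors' unit on log axes, for members and IDR peaks; each point is 1 pooled peak and the dashed line marks equal signal. Members fill a corner bounded by the rule at 42.5 and 29.4, and 1139 of 1253 lie below the line.

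The members strongest in both replicates were picked by their weaker replicate rank. At the promoter of Keap1, which encodes the cytoplasmic sensor of oxidative stress, signals were 142 in replicate 2 and 69.8 in replicate 3, at ranks 223 and 658. Its IDR neighbour was 253 bp away, just past the limit. An IDR peak was matched to replicate peaks with these same signals, so the values are not the member's alone. The intronic member at aop, an ETS-domain repressor, had 77.4 and 82.3 and an IDR summit 251 bp away. At the promoter of bib, a neurogenic channel-family protein, the values were 92.0 and 63.7, and there the nearest IDR summit was 5263 bp off. In all, 17 members lay 251 to 500 bp from an IDR summit, 17 overlapped an IDR interval, and at 13 a matched replicate peak was itself within 250 bp of an IDR summit.

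Not every member was a separate place in the genome. All members were 440 bp wide, and merging overlapping ones left 1174 regions, with 155 members in regions of more than 1. Shared replicate peaks show the same: 142 members shared their replicate 2 peak with another member and 138 their replicate 3 peak.

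Members lay mostly in introns and between genes, and promoters held more of them than their share of the genome. Of 1253 summits, 300 were in promoters (within 500 bp of the TSS of a protein-coding gene; 23.9%, Wilson 95% interval 21.7 to 26.4), while promoters make up 11.5% of bases on the chromosome arms. Introns held 507 (40.5%, against 39.3% of bases) and intergenic sequence 406 (32.4%, against 30.0%). Coding exons held 11 (0.878%, against 13.9% of bases), 3′ UTRs 16 (1.28%) and 5′ UTRs 13 (1.04%).

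Against the IDR peaks, members were fewer at promoters and more often intergenic. The promoter share differed by −4.93 percentage points (Newcombe 95% interval −7.95 to −1.84) from the 28.9% of IDR peaks, and the intergenic share by 4.33 points (1.13 to 7.58). The 3′ UTR share, small in both, was higher by 0.706 points (0.0583 to 1.53). Against unmatched peaks no difference in promoter share was found: 24.1% of these were at promoters, a difference of −0.178 points (−3.06 to 2.78). The coding exon share was lower than in unmatched peaks by a small margin (−0.923 points, −1.65 to −0.0952). These intervals cover counting error over peaks only, since peaks are not replicates, and unmatched peaks also sat lower in rank. Within the 3 rank ranges the promoter share of members was 23.8%, 24.0% and 24.6%, and each interval of the difference from unmatched peaks held 0. With the rank ceiling at 4000 in the pooled list and in each replicate list, the promoter difference from unmatched peaks was −4.98 points (−9.39 to −0.174). That call thus depends on the ceiling.

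**Figure D3:**
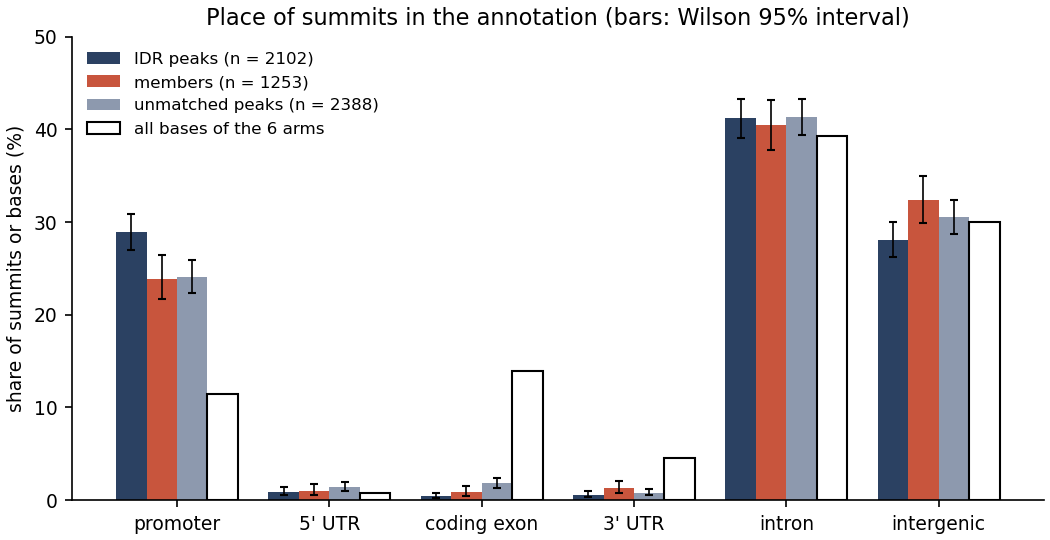
Share of summits (y axis, percent) in each annotation class (x axis) for IDR peaks, members and unmatched peaks, with Wilson 95% intervals, and the share of all bases on the 6 arms as open bars. Promoters held 23.9% of members, 28.9% of IDR peaks and 11.5% of bases.

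The Kr core word was more common under members than beside them, and rarer than under IDR peaks. Within 100 bp of the summit, counting both strands, 89 members had AAGGGTT (7.10%, 5.81 to 8.66). The share was 2.46% in windows of the same length centred 1 kb to either side, 2.07% over all such tiles of the genome and 1.63% in windows around TSSs. The difference from the flanks was 4.64 points (3.16 to 6.29). IDR peaks had the word in 12.5%, which puts members −5.41 points from them (−7.38 to −3.35). Unmatched peaks had it in 8.25%, and the difference of −1.15 points (−2.89 to 0.725) did not leave out 0.

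The word sat near the summit. Within 50 bp members held 0.556 words per kb, and at 300 to 500 bp 0.108 per kb, while IDR peaks held 1.000 and 0.125. Unmatched peaks were close to members in this, at 0.541 and 0.107. Around the replicates' own matched summits the shares were 7.34% in replicate 2 and 6.86% in replicate 3, and 65 members (5.19%) had the word at both. Median signals of members with and without the word were 51.4 and 52.8 in replicate 2, and 37.8 and 36.9 in replicate 3. In 10 members there was more than 1 word.

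**Figure D4:**
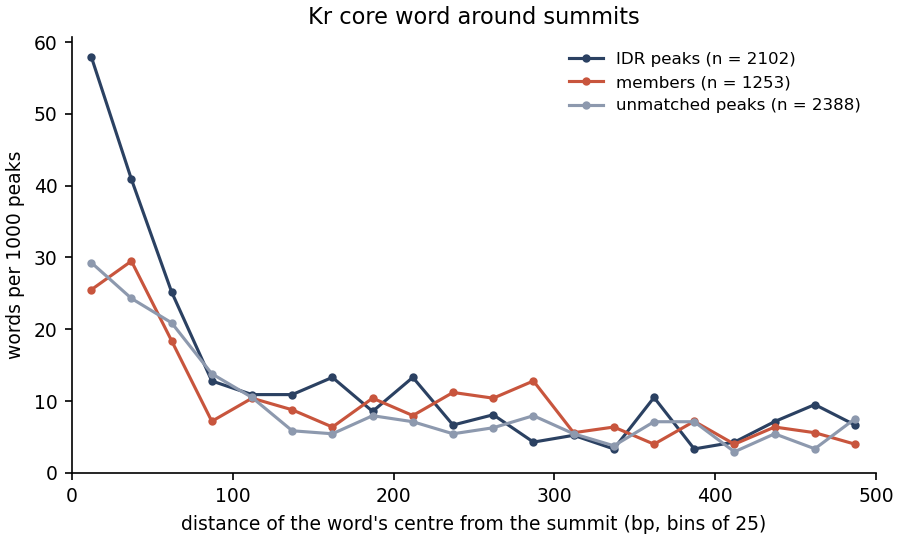
Kr core words per 1000 peaks (y axis) by distance of the word's centre from the summit (x axis, bp, bins of 25 bp) for IDR peaks, members and unmatched peaks. Members reach 25.5 words per 1000 in the innermost bin against 58.0 for IDR peaks, and the lines run together farther out.

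Bases beside the word also differed from the genome's. Of 101 words within 100 bp of member summits, 30 were followed by AA (29.7%), against 11.4% of the 14405 words on the arms, a difference of 18.3 points (10.2 to 27.8). An A came before the word in 58.4%, against 44.8% (13.6 points, 3.87 to 22.8). Unmatched peaks had 28.2% and 57.4%, near the values of members, and IDR peaks had 25.4% and 71.1%.

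Promoter members seldom held the word. It lay under 7 of 300 promoter members (2.33%, 1.13 to 4.74) and under 82 of the 953 others (8.60%, 6.99 to 10.6), a difference of −6.27 points (−8.56 to −3.37). Windows centred on all TSSs had the word in 1.63%, which is inside the interval of promoter members. An excess of the word over TSS windows was thus not shown for promoter members, though the 2 kinds of window are not placed alike. Promoter IDR peaks had it in 9.23%, so promoter members stood −6.89 points from them (−9.72 to −3.73). Away from promoters the difference from IDR peaks was −5.24 points (−7.69 to −2.68). Unmatched promoter peaks had it in 4.17%, and that difference (−1.83 points, −4.13 to 0.924) held 0.

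Words bound by other factors of the early embryo, and a plain repeat, were counted in the same way. CAGGTAG, bound by Zelda, the pioneer factor of the early genome, was within 100 bp of 3.83% of member summits and in 1.14% of flanks (2.69 points, 1.62 to 3.95). GAGAGAG, the repeat bound by GAGA factor (Trl), was at 8.06% and 3.65% (4.41 points, 2.79 to 6.19). The repeat CACACAC was at 16.1% and 7.79% (8.33 points, 6.07 to 10.7). TATCGAT, bound by DREF and BEAF-32 at housekeeping promoters, was at 3.03% and 2.20% (0.833 points, −0.234 to 2.05). Promoter members had TATCGAT in 6.67%, promoter IDR peaks in 7.58% and unmatched promoter peaks in 5.38%. Windows centred on all TSSs had it in 12.7%, but these are not placed alike: 188 promoter members had summits 101 to 500 bp from a TSS. GGTCACACT, a core promoter motif, was at 4 members (0.319%). Genome tiles held these words, in the same order, in 1.09%, 2.45%, 6.22%, 2.56% and 0.201%. For none of these 5 words did the interval of the difference of members from unmatched peaks or from IDR peaks leave out 0. The median GC content of member windows was 45.3%, against 43.8% in IDR peaks and 42.2% on the arms.

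Members farther from IDR peaks were more often at promoters. The median distance to the nearest IDR summit was 7420 bp, with 507 members within 5 kb, 429 at 5 to 25 kb and 317 beyond. Promoter shares were 17.9%, 22.4% and 35.6% in that order, and members within 5 kb stood −17.7 points from those beyond 25 kb (−23.9 to −11.5). The word share showed no such trend, at 6.31%, 8.62% and 6.31%. Between 1001 and 5000 bp from an IDR summit lay 34.0% of members and 30.4% of unmatched peaks (3.64 points, 0.457 to 6.86). This was 1 of 4 distance bins, uncorrected, and in the other 3 the differences of −0.0263, −1.52 and −2.09 points had intervals that held 0.

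Across the chromosome arms, member density was 10.0 per Mb on 2L, 9.29 on 2R, 10.00 on 3L, 10.3 on 3R, 6.68 on the fourth chromosome and 6.88 on X. X held 12.9% of members and 17.6% of the bases. Its share differed from that of unmatched peaks by −1.10 points (−3.37 to 1.28) and from that of IDR peaks by 1.70 points (−0.549 to 4.05).

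Of 13945 protein-coding genes, 1584 had a member summit in the body or within 5 kb, which is 11.4% of all genes, and 956 of these had no IDR summit in that span, which is 6.86%. The share of all genes depended on requiring both replicates: it was 18.6% (2590 genes) without replicate 2 and 19.3% (2694) without replicate 3. Counting members beside the 2516 genes with an IDR summit gives 3472 genes in all. Only 1075 of the 1253 members were assigned to a gene, and 178 lay farther from any. Most genes with a member had just 1 (1211), and 373 had more.

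Many genes of embryonic patterning had a member. Over 12 lists of developmental genes, 72 of 134 (53.7%) had a member, against the 11.4% background, and 22 (16.4%) had a member and no IDR summit, against 6.86%. This was not particular to members: IDR summits lay at 78 of the 134, against 18.0% of all genes. Unmatched peaks lay at 8 of 11 pair-rule genes, as members did, and at 15 of 19 neural genes against 12. At maternal and terminal genes they lay at 4 of 9 against 6. Their share over all genes is not given here. Longer genes had a member more often, and the listed genes were long, with a median of 7614 bp against 2166 bp. In genes of up to 2000 bp, 7 of 22 listed genes had a member, against 7.15% of all genes of that length, and from 2001 to 10000 bp 26 of 57, against 11.1%. From 10001 to 50000 bp the counts were 28 of 43, against 23.1%, and above that 11 of 12, against 42.0%. Among 88 ribosomal protein genes, with a median length of 1326 bp, 18 had a member (20.5%). That is also above the 7.15% of all genes up to 2000 bp, and IDR summits lay at 45 of the 88. A raised share was thus not particular to the developmental lists. Among 119 odorant and gustatory receptor genes, with a median of 1444 bp, 2 had a member (1.68%).

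Of the gap, pair-rule, maternal and terminal genes, 17 of 25 had a member, and 5 of them had no IDR summit: hkb, eve, run, osk and zld. With the IDR peaks, 23 of the 25 had a summit of either kind. The values below are each gene's highest member.

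Among the gap genes, which set broad domains in the blastoderm, 4 of 7 had members (hb, kni, Kr and hkb). The kni member (kni encodes a nuclear receptor family repressor) covered its promoter at chr3L:20695184-20695623, with its summit 26 bp from the TSS, and had signals of 70.8 in replicate 2 and 32.5 in replicate 3 at pooled rank 2106. The hkb member, chr3R:4340150-4340589, lay 4645 bp downstream of this terminal zinc finger gene and had 46.3 and 39.5. The TSS of CG1103 was nearer, at 2418 bp. Its nearest IDR summit was 324817 bp away. At hb, a zinc finger gap gene, the member with the word was at rank 3511 with 56.0 and 31.2, lying 2081 bp downstream of the gene, with the TSS of CG44227 nearest. At Kr itself the highest of 4 members had 43.7 and 46.2. The replicate 3 value was the higher there, unlike at most members, though the replicate levels differ. The Kr members at ranks 3142 and 3906 overlapped and had the same replicate signals, 43.5 and 34.2.

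Of the 11 pair-rule genes and odd relatives, which set the segmental repeat, 8 had members. The eve member, chr2R:9976944-9977383, lay 2155 bp upstream of this homeodomain gene and was its only peak in the band, with 46.2 in replicate 2 and 47.2 in replicate 3 at rank 3229. The run locus (a Runt-domain factor) had a member 3137 bp upstream of the gene, chrX:20687313-20687752, with 62.2 and 33.5, and another in an intron with 49.5 and 37.3. Promoter members were found at the zinc finger genes odd (49.9 and 43.5) and drm (46.8 and 47.3) and at hry, a bHLH repressor (54.1 and 49.4). At opa, a zinc finger gene, replicate 2 had 84.0 and replicate 3 only 31.2, the widest gap among these genes. The forkhead gene slp1 had 3 members upstream of its TSS, the highest with 51.2 and 42.6, and the homeodomain gene ftz had 4, the highest with 56.3 and 38.4.

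Of 9 maternal and terminal genes found in the annotation, 6 had members. For zld, which encodes the pioneer factor Zelda, the highest of 3 was intronic at rank 2179 with 68.9 and 34.1, chrX:19773249-19773688. An overlapping zld member at rank 5472 had the same replicate signals, and the TSS of CG12702 was nearest to all 3. The osk member, 3579 bp upstream of this pole plasm gene, covered the promoter of pyd, a cell junction gene, with 70.8 and 30.8, so the gene it belongs to is not settled by distance. The posterior homeodomain gene cad had a promoter member with 55.5 and 37.1, and gro, the co-repressor recruited by many of these factors, had one with 57.7 and 31.4. At cic, an HMG-box repressor of the terminal system, the intronic member with the word had 45.2 and 36.2.

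**Figure D5:**
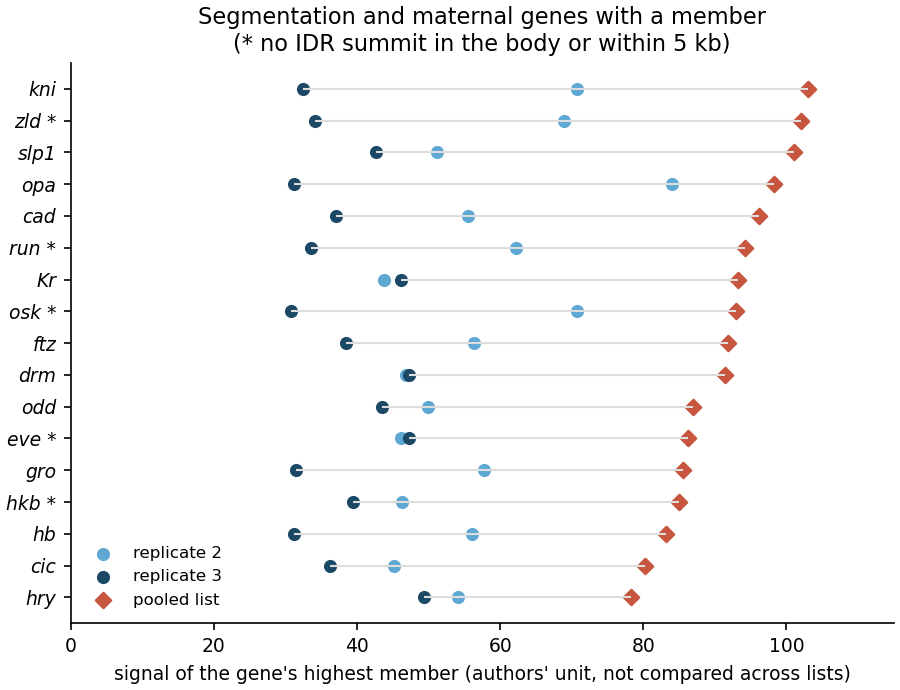
Signal (x axis, authors' unit, starting at 0) of the highest member at each of 17 segmentation and maternal genes (y axis) in replicate 2, replicate 3 and the pooled list. The levels of these lists differ, and whether they share a scale is unknown. An asterisk marks the 5 genes without an IDR summit. Replicate 2 is above replicate 3 except at Kr, drm and eve, where replicate 3 is slightly higher.

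Later patterning and tissue genes had members as well. Of 15 segment polarity genes 10 had one, and mid, a T-box gene without an IDR summit, had a promoter member with 79.9 and 36.0, while hh, the Hedgehog ligand, had an intronic one with 57.2 and 43.9. In the Hox cluster 7 of 12 did, among them Scr with 51.8 and 48.5 and Abd-B with 58.6 and 30.8, both homeotic genes without an IDR summit. Of the 10 head gap genes 5 did, with ems, a homeodomain gene, at 46.0 and 50.3. Of the 19 dorsoventral genes 9 did. The sna member, 1863 bp upstream of this mesodermal zinc finger repressor, held the word and had 67.3 and 44.8. The ind member, downstream of a neuroectodermal homeodomain gene without an IDR summit, had 75.4 and 38.9 and lay nearest to the TSS of Rpn12R.

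Of 19 neural genes 12 had a member, among them the bHLH gene dpn, without an IDR summit, with 57.6 and 44.1. That member lay 1582 bp downstream of dpn, and the TSS of CG34217 was nearest. Mesoderm and muscle genes had one in 8 of 15, including lbe, a muscle identity homeobox gene without an IDR summit (60.5 and 41.6). Trachea, gut, salivary gland and blood genes had one in 5 of 14, including the GATA factor gene srp (57.4 and 51.4). Co-repressors and cofactors had one in 4 of 8, including CtBP, a co-repressor that Kr is known to use, without an IDR summit (71.1 and 40.8). Early zygotic genes, most of them short, had one in 1 of 9 (11.1%, against 11.4% of all genes), at Z600 (46.0 and 31.0). It lay 1756 bp upstream of Z600, and the TSS of CG7841 was nearest.

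Some genes collected many members. The most were 8 each at fz2, a Frizzled receptor for Wingless, and at hth, a Hox cofactor, followed by 7 each at RapGAP1 and tna and 6 each at CG9380, in whose body Kr lies, E2f1, ed and sbb. Each of these 8 genes also had IDR summits, from 2 at E2f1 to 31 at CG9380. The counts were not adjusted for gene length. The gene bodies of fz2 (chr3L:19140975-19235373) and hth (chr3R:10507561-10639568) were long, against a median of 2166 bp over all genes. Runs of members with gaps of at most 5 kb reached 6 near plh (5.16 kb) and 6 around ftz (10.7 kb). At ths, an FGF ligand gene, at rin and sqd, which encode RNA-binding proteins, and at CG44290, runs of 4 members held no IDR summit. Overlapping intervals and shared replicate peaks contribute to such runs.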

How the data were processed

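Peaks were read from narrowPeak lists that the authors deposited for GFP-tagged Kr, from ChIP-seq of sonicated chromatin with, per the labels' descriptions, an antibody to GFP (their antibody field names Kr): 1 permissive list for each of 2 replicates, 1 for the pooled reads, and an IDR list. The peak signal deposited by the authors is never negative and of unstated scale. A q-value per peak, stored as −log10, was deposited by the authors in the same lists. Neither the aligner nor the peak caller nor the IDR threshold is given in the sources used here. The files hold no counts, so the depth is unknown and intervals cover counting error only.

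Members were selected on dm6 by rank and summit distance, and the replicate peak of highest signal within 250 bp was taken. Coordinates start at 1. Genes came from Ensembl release 115 and sequence from RefSeq Release 6. Shares carry Wilson 95% intervals and differences Newcombe 95% intervals, and a difference was called where its interval left out 0. No correction over comparisons was made. The named-gene rule takes all gap, pair-rule, maternal and terminal genes with a member, up to 4 of each other list by signal, the 10 members of highest pooled signal, the 10 of best weaker replicate rank, and the 5 genes with most members, with those tied for the last place added afterwards. Genes at the runs of members, and the windows near tna, sno, SmD1, Nazo and ssp3, were chosen after their values were seen. Of 135 listed developmental gene names 134 matched, and the other is not analysed here.

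The members, lists and words were chosen with earlier results of these data known. Alternatives were other match distances, rank ceilings, promoter widths, word windows and lengths, gene windows, single replicates, rank ranges and the dm3 lists. The selection was tested on simulated data. Python 3.11.15, numpy 2.4.6, pandas 2.3.3, scipy 1.17.1 and matplotlib 3.10.9 were used.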

Additional observations from a re-analysis of the deposited data

How the results depend on the processing

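The number of members followed the rule: 406 with a rank ceiling of 4000, 3134 with 10000, and 2126 to 2517 when a match in 1 replicate was enough, against 1253. Each change of ceiling applied to the pooled list and to each replicate list. Of the promoter share relative to unmatched peaks, a single replicate gave −1.62 to 1.41 points, a match distance of 100 bp 0.759, ranks 4701 to 6000 1.75, and the ceiling of 4000 −4.98, whose interval alone left out 0. For the word relative to unmatched peaks, a single replicate gave −0.992 to 0.113 points, 100 bp matching 0.312 and ranks 3401 to 4700 0.389. Direction against unmatched peaks is thus not fixed by these data. The cause of these changes was not tested.

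Both differences from IDR peaks kept their direction and their side of 0 under the alternatives run, including 1 member per region and members over 500 bp from an IDR summit, both added after seeing the data. Listed developmental genes with a member numbered 60 to 95 of 134, against 72, while the share of all genes moved as well: 44.8% of listed and 7.54% of all genes with a window of 2 kb, 65.7% and 17.8% with 10 kb, 62.7% and 18.6% without replicate 2, and 70.9% and 19.3% without replicate 3. Of the 17 segmentation genes, eve, hkb and osk had no member with a window of 2 kb. With 100 bp matching hry and osk had none, and with the ceiling of 4000 none was left at 12 genes. For these genes the latter 2 settings were chosen after seeing the data. Among the 12 was kni, whose member had pooled rank 2106 but replicate 3 rank 4616.

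No paired analysis was possible because the series has 1 group. Depth and signal scale are unknown, so what depth limits cannot be stated.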

Other observations

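On the dm3 lists, whose IDR set held 1552 peaks, the same rule over ranks from the end of that set to 6000 gave 1757 members, 39.5% of the band, against 32.1% on dm6. The replicate 3 list for dm3 held 25864 peaks. No dm3 coordinates were compared with dm6.

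Soft-masked repeat sequence covered the summit of 194 members (15.5%, Wilson 95% interval 13.6 to 17.6), against 13.4% of unmatched peaks, 16.9% of IDR peaks and 20.1% of bases on the arms.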
